A study of Mus musculus with 72 samples.

Results

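Of the 91770 open-chromatin peaks in the microglial H3K27ac table, 5953 (6.49%) lay more than 3000 bp from the nearest annotated start site and had a peak centred within 200 bp of their own centre in both the neuronal and the oligodendrocyte table. These 5953 sites are called shared distal peaks here, or members in the plots. The table held 59398 distal peaks in all, which left 53445 distal peaks that were not matched in both other tables, and 13864 matched (joined) peaks lay near a start site. Position alone chose the shared distal peaks, and no acetylation or factor value entered the choice. The neuronal table held 107627 peaks and the other held 82577, each centred on the reproducible ATAC peaks of that cell type. The ATAC signal itself was not analysed here, so the measurements below concern acetylation and factor binding at sites that were listed as open.

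The nuclei came from the forebrain of C57BL/6 mice and were sorted as microglia (PU.1 positive, NEUN and OLIG2 negative), neurons (NEUN positive) or oligodendrocyte lineage (OLIG2 positive). Wild-type mice (WT) were compared with SgshKO mice, which lack the lysosomal sulfatase SGSH that breaks down heparan sulfate, at 4 and 8 months. H3K27ac ChIP-seq had 2 libraries per cell type, genotype and age, 8 per cell type and 24 in all. MITF, TFEB and TFE3 ChIP-seq of microglia and oligodendrocytes was deposited as 1 merged pool per factor and genotype, with no age in the labels and no replicate error. The labels do not say whether the 2 libraries of a group came from separate animals, so the p-values measure only the spread between these libraries. H3K27ac ChIP libraries held between 6059671 and 35485716.5 tags, and factor pools between 22827269 and 52808841.

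Acetylation of histone H3 at lysine 27 marks active promoters and enhancers. Most enhancers are used in 1 or a few cell types, whereas chromatin that is open in many cell types includes promoters of broadly used genes and the insulator sites where the zinc finger protein CTCF anchors loops. MITF, TFEB and TFE3 are related basic helix-loop-helix factors that bind E-box sequences and drive lysosome and autophagy genes. In sorted nuclei, fewer modified cells and less signal per cell cannot be told apart.

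No genome came with the files, so sequence could be read only where a RefSeq transcript start lay within 100 bp of a peak's centre. That was so for 203 shared distal peaks (3.41%) and 444 other distal peaks (0.831%), which are starts that the authors' annotation did not use. The 225 windows of 300 bases (RefSeq, GRCm38.p6) at these 203 sites held the core CTCF letters in 16.9%, against 4.63% of all 32851 such windows. No letters were counted separately in windows at other distal peaks or at matched peaks near a start site. Whether the CTCF share is particular to shared distal peaks was therefore not tested. The 6 sites below show that the core occurred with and without acetylation. The capitals mark the CTCF core, each sequence is written along the strand of its core, and the first 3 sites were under 2-fold over input in every cell type while the last 3 were at or above it in all of them.
Lgalsl (chr11:20794376-20794404, minus strand): atgctgaccCCTGAAGGTGGgagggagta
Mief1 (chr15:80225409-80225437, minus strand): cctcgctgaCCACCAGGGGGcagtgcagc
Pdcd6ip (chr9:113719229-113719257, plus strand): ttccctgaaCCACAAGGGGGagcagaggc
Lyl1 (chr8:84722953-84722981, minus strand): gtgtggtggCCACAAGGTGGgggcaggga
Acbd3 (chr1:180768636-180768664, plus strand): tcaagatggCCACCAGAGGGctcacgagc
2010106C02Rik (chr17:86445092-86445120, minus strand): caagtctggCCACAAGGGGGcatgagagc

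The gene names are those of the nearest start site in the authors' table. The unacetylated Pdcd6ip site had mean H3K27ac levels of 2.20 tags per 10000000 tags of the library (written tags per 10M from here) in microglia, 1.69 in neurons and 3.06 in oligodendrocytes. The unacetylated Mief1 site read 3.74, 1.38 and 4.19, and the Lgalsl site 13.1, 1.83 and 4.42. The Lyl1 site is named for a blood-lineage transcription factor gene whose start site lay 21526 bp away. It was in an intron, and the label does not give the gene of that intron. The Lyl1 site read 299.0, 56.3 and 19.9. Its microglial libraries ran from 227.47 to 404.01, against 44.93 to 70.75 in neurons and 8.50 to 31.29 in oligodendrocytes, with no overlap between cell types. The Acbd3 site read 78.7, 17.7 and 20.7, and the 2010106C02Rik site 22.6, 29.9 and 7.73. A letter match is a description and not a measured CTCF site.

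The 3 longer stretches belong to named sites of the comparisons that follow: an intron site of Bcl3 that rose in SgshKO oligodendrocytes, a site near Gm7244 that was high in every cell type, and a site near Pick1 that was high in oligodendrocytes alone. They are written on the plus strand. Capitals mark matches of the letters searched, which are GGGCGG (KLF/SP) and GAGGAAGT (PU.1) in the Bcl3 site, GGGCGG and CATCTG (neuronal E-box) in the Gm7244 site and GGGCGG in the Pick1 site, on either strand.
Bcl3 (chr7:19816352-19816551): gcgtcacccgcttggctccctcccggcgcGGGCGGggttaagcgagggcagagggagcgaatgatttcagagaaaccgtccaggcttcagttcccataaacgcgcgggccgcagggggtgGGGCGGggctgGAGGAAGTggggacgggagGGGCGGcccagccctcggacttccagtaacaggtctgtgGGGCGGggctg
Gm7244 (chr9:31280763-31280962): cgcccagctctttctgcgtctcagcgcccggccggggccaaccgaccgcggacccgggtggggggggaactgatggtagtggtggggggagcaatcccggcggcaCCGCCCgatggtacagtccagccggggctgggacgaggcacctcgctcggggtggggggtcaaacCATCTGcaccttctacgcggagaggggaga
Pick1 (chr15:79224540-79224739): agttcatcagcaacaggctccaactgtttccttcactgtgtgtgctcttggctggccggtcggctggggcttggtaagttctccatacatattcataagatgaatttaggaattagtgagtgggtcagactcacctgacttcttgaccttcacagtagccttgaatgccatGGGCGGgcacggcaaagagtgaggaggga
G and C made up 69.5% of the Bcl3 stretch, 71.0% of the Gm7244 stretch and 50.5% of the Pick1 stretch.

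Other letters were searched in the same 225 windows on both strands. GGGCGG was in 49.8% of them and in 35.7% of all windows, and the median GC content was 57.3% against 52.7%. TGANTCA (AP-1) was in 9.78% against 7.81%, GAGGAAGT in 3.56% against 3.20%, CACGTG (the MITF/TFE E-box) in 6.67% against 7.15%, and TGACGTCA (CRE) in 2.67% against 1.79%. TAAAAATA (MEF2) was in 1.33% against 2.72%, ACAAAG (SOX) in 14.7% against 18.7%, CATCTG in 14.7% against 17.2%, TGTGGTT (RUNX) in 4.44% against 5.27%, CCGGAAGT (ETS) in 1.33% against 3.89% and TTGGCA (NFI) in 12% against 14.1%. The PU.1 and ETS letters share GGAAGT, so 1 stretch can come close to both. These shares describe the few sites at a RefSeq start and not the 5953.

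The shared distal peaks had a median distance of 16351 bp from the nearest start site (quartiles 7772 and 34211 bp). Their partners were centred a median of 35 bp away in the neuronal table and 31 bp away in the oligodendrocyte table. Compared with other distal peaks, they were more often intergenic (47.6% against 39.4%), less often intronic (41.8% against 54.3%) and more often at a transcription termination site (3.80% against 1.78%). CpG islands held 521 of them (8.75%), against 0.898% of other distal peaks. Repeats of the LTR class held 2.17% against 8.54%, and LINE repeats 0.840% against 3.67%. These are properties of the peak sets, given with no test. The windows of 557 shared distal peaks overlapped that of another member, 14 shared a neuronal partner and 18 an oligodendrocyte partner, 11 lay on an unplaced sequence and 4 on the Y chromosome, so the sites are not all independent.

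At the limits of the definition the values were mixed. The Trim7 intron site, 3002 bp from its start site, read 21.6 ± 9.96 (SD, n = 8) in microglia, and the Smarcd3 site at 3003 bp read 34.6 ± 15.2. Just outside, the Fbxo43 site at 2994 bp read 2.62 ± 2.79 and the Fdxr site at 2999 bp 2.77 ± 3.35. Of sites whose farther partner was exactly 200 bp away, the Faap20 site read 1.75 ± 1.72 and the Mir23a site 50.5 ± 15.6 in microglia, and at 201 bp the Sptbn1 site read 1.69 ± 1.46 and the Ppp1r1b site 7.32 ± 6.19.

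Acetylation at the shared distal peaks was low at most sites and high at a minority, in every cell type. The level is the number of tags in the 800 bp window per 10M tags of the library. The median level lay between 4.04 and 5.98 in the 8 microglial libraries, between 6.60 and 7.99 in neurons and between 5.19 and 7.90 in oligodendrocytes. The same libraries had medians of 12.6 to 17.0, 14.4 to 16.4 and 16.1 to 28.7 at other distal peaks, and of 26 to 36.7, 41.4 to 49.8 and 16.1 to 32.8 at matched peaks near a start site. In each of the 24 libraries the median of the shared distal peaks was thus the lowest. The input libraries read medians of 0 to 4.28, 2.03 to 2.54 and 0 to 3.30 at the same sites.

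**Figure D1:**
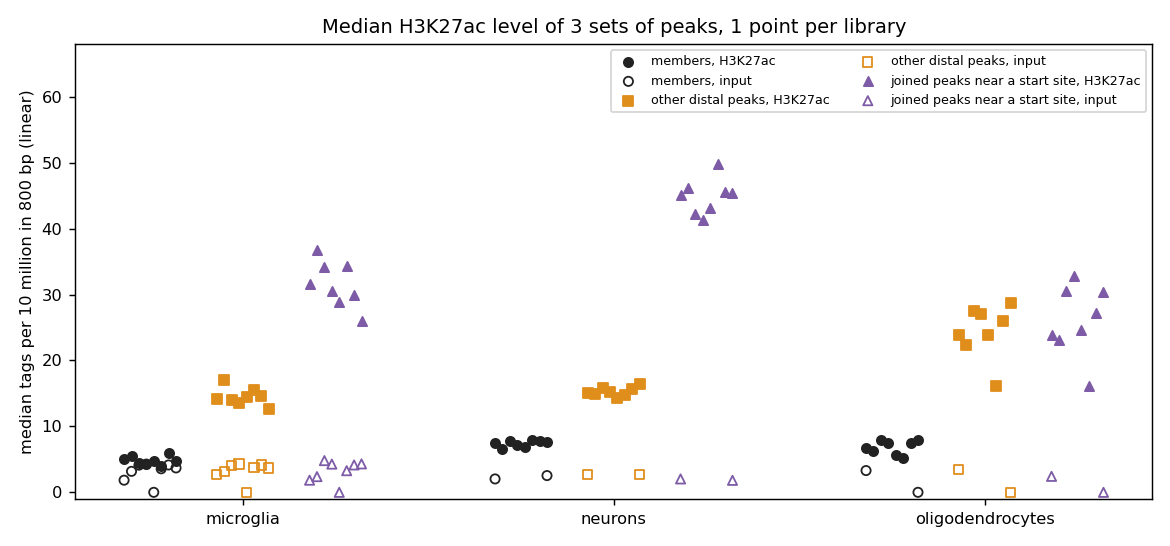
Median H3K27ac level (tags per 10M of the library, 800 bp window) of each of the 24 ChIP libraries at shared distal peaks, at other distal peaks of the same table and at matched peaks near a start site, with the input libraries beside them. The shared distal peaks read 4.04 to 7.99 in every ChIP library, below the other distal peaks of the same library.

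A site is called marked where its mean ChIP level was at least 2-fold over input on the log2(level + 1) scale. By this measure 2140 shared distal peaks were marked in microglia (35.9%, Wilson 95% interval 34.7 to 37.2%), 3193 in neurons (53.6%, 52.4 to 54.9%) and 3260 in oligodendrocytes (54.8%, 53.5 to 56.0%). These intervals cover counting error only, with PCR reads that are not independent molecules. At other distal peaks 60.1%, 73.4% and 79.4% were marked, and at matched peaks near a start site 77.9%, 91.4% and 87.4%. The mean input was above the mean ChIP level at 44.8% of shared distal peaks in microglia, 27.5% in neurons and 24.2% in oligodendrocytes. At the upper end, 797 sites (13.4%) reached a mean level of 50 in microglia, 885 (14.9%) in neurons and 825 (13.9%) in oligodendrocytes, and the highest sites read 505.6, 553.8 and 904.9.

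Sites open in all cell types were spread almost evenly over the number of cell types in which they were marked. There were 1576 (26.5%) marked in none, 1580 (26.5%) in 1, 1378 (23.1%) in 2 and 1419 (23.8%) in all 3 cell types. Of matched peaks near a start site, 3.06% were marked in none and 70.5% in all 3. Among the sites marked in a single cell type, 244 were marked in microglia, 639 in neurons and 697 in oligodendrocytes. CpG island sites stood at the acetylated end, with 51.1% marked in all 3 cell types and 6.14% in none, against 21.2% and 28.4% of the rest. Their median levels were 14.2 in microglia, 42.1 in neurons and 18.1 in oligodendrocytes, against 4.17, 6.36 and 5.99 at sites outside islands. The core CTCF letters ran the other way at the 203 sites with a RefSeq start: 7 of 15 unmarked sites (46.7%) had them, 14 of 42 marked in 1 cell type (33.3%), 3 of 53 marked in 2 (5.66%) and 11 of 93 marked in all 3 (11.8%).

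**Figure D2:**
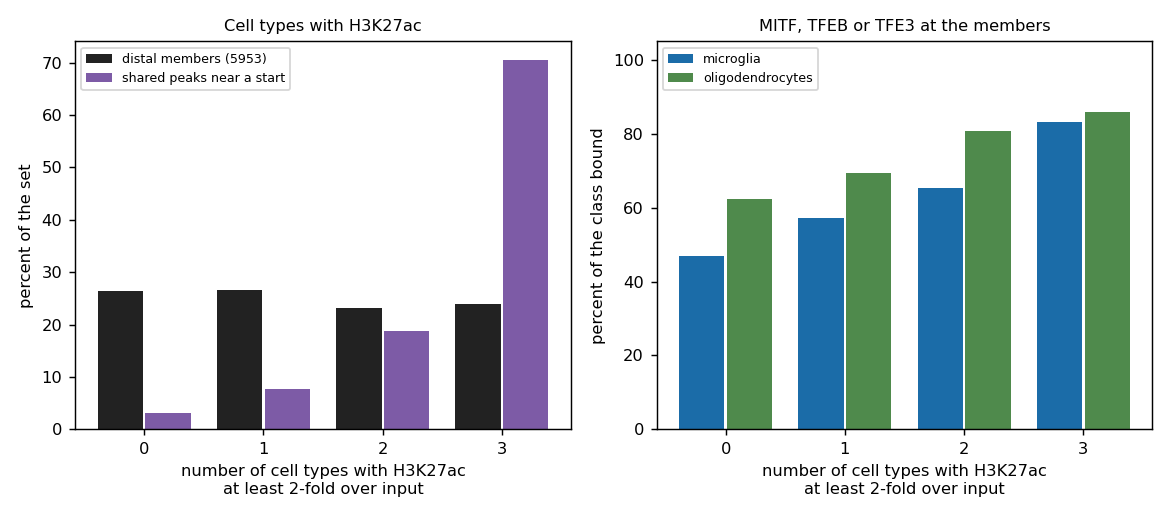
Share of shared distal peaks marked by H3K27ac (at least 2-fold over input) in 0, 1, 2 or 3 cell types beside that of matched peaks near a start site, and the share of each class bound by a factor in microglia and oligodendrocytes. The classes held 26.5%, 26.5%, 23.1% and 23.8% of shared distal peaks, and binding rose from 46.8% to 83.1% in microglia and from 62.4% to 85.8% in oligodendrocytes over these classes.

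The sites chosen for the highest level in their lowest cell type were high in all of them. A group of 3 overlapping windows around chr17:46856791-46857591, in a CpG island within the RefSeq span of Bicral, were among them, and the central one read 337.1 ± 50.3 (SD, n = 8) in microglia, 274.2 ± 35 in neurons and 279.9 ± 64.9 in oligodendrocytes. The Gm7244 site printed above, within the RefSeq span of Prdm10, read 242.2 ± 36.6, 292.1 ± 34.9 and 324.2 ± 115.3. A CpG island site near Sirt4, which encodes a mitochondrial sirtuin (chr5:115489528-115490328), read 259.7 ± 64.7, 324.8 ± 35.6 and 328.7 ± 85.2. These libraries overlapped between cell types at every one of these sites. Tags were scaled within each cell type's own table, so an order of levels between cell types is a description with no test.

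At other shared distal peaks acetylation was found in 1 cell type. A site 20829 bp from Fcgr2b, an inhibitory immunoglobulin receptor gene (chr1:170996500-170997300), read 162.7 ± 22.9 in microglia, 1.5 ± 1.6 in neurons and 1.9 ± 1.5 in oligodendrocytes. A site labelled Tagap, 41526 bp from Fndc1 and 57134 bp from Tagap (chr17:7868466-7869266), read 146.9 ± 34.8, 1.1 ± 2.1 and 1.6 ± 1.5. In neurons the leading sites were in the last exon of Meltf (chr16:31896829-31897629, 3′ UTR), with 2.1 ± 1.5, 277.2 ± 30.6 and 4.3 ± 2.7, and in the intron of Klf16 (chr10:80573695-80574495), with 2.9 ± 1.9, 259.3 ± 34 and 3.8 ± 3.4. In oligodendrocytes they were the Pick1 site printed above, with 1.7 ± 2.0, 4.7 ± 2.4 and 360.0 ± 98.8, and exon 36 of 98 of Dst, a cytoskeletal linker gene (chr1:34189788-34190588), with 6.2 ± 4.6, 5.8 ± 4.5 and 493.0 ± 98.6. All 8 libraries of the leading cell type were far above the other 16 at these 6 sites, which were chosen for that.

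Counted over all sites, the 8 microglial libraries were above the other 16 at 470 shared distal peaks (7.90%, against 8.11% of all 19819 matched peaks), the neuronal ones at 709 (11.9% against 16.2%) and the oligodendrocyte ones at 530 (8.90% against 5.14%). A single cell type was highest in this strict sense at 1709 sites (28.7%, against 29.4% of all matched peaks), and at the remaining sites the libraries of cell types overlapped. Across the 5953 sites, Spearman's rho between mean levels was 0.448 for microglia and neurons, 0.493 for microglia and oligodendrocytes and 0.548 for neurons and oligodendrocytes. The sites share libraries and depth, so these values are a description.

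MITF, TFEB or TFE3 was bound (at least 2-fold over input on the log2(tags + 1) scale, as the mean over the WT and SgshKO pools) at 3720 shared distal peaks in microglia (62.5%, against 68.2% of other distal peaks). In oligodendrocytes at least 1 of them was bound at 4413 (74.1%, against 69.3% of other distal peaks of that table). In microglia TFE3 was bound at 52.4%, MITF at 31.6% and TFEB at 28.5%. In oligodendrocytes the order was TFE3 61.4%, TFEB 59.8% and MITF 46.4%. All 3 factors were bound at 15.6% in microglia, against 24% of other distal peaks, and at 36.3% in oligodendrocytes, against 37.0%. A set of 2921 sites was bound in both cell types, which was 78.5% of the sites bound in microglia and 66.2% of those bound in oligodendrocytes. The SgshKO input pool was at 0 at 47.3% of the sites in microglia and 50.6% in oligodendrocytes, against 3.09% and 16.5% in the WT input. The factor pools held zeros too. In microglia the SgshKO pool was at 0 at 52.4% of the sites for TFEB, 38.9% for MITF and 15.9% for TFE3, against 20.8%, 29.4% and 4.57% in WT. In oligodendrocytes these shares were 15.8%, 8.74% and 15.2%, against 2.37%, 22.2% and 1.29%. Pool differences at such sites rest on few tags. With the WT pools alone, 54.0% and 70.5% of the sites were bound.

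Binding and acetylation went together across sites. In microglia 46.8% of sites marked in no cell type were bound, 57.2% of those marked in 1, 65.2% in 2 and 83.1% in all 3, and in oligodendrocytes the shares were 62.4%, 69.4%, 80.8% and 85.8%. The SgshKO pools had more tags than the WT pools over all bound peaks of a table, by a median log2 of 0.78 for MITF, 0.43 for TFEB and 0.65 for TFE3 in microglia and of 1.43, 0.65 and 0.86 in oligodendrocytes. Tags per 10M are therefore given below with their log2 difference between the SgshKO and WT pools, after this median is taken off (centring). Bound peaks were chosen partly by the SgshKO pools, so the median depends on that choice. In microglia 1781 shared distal peaks passed 2-fold over input for MITF in the SgshKO pool alone and 560 in the WT pool alone. For TFE3 these were 1969 and 506, and for TFEB 1360 and 857. Over all shared distal peaks the microglial TFEB median was 3.52 tags in WT and 0 in SgshKO. For MITF it was 1.83 and 3.09, and for TFE3 4.48 and 6.61. The 3 sites with the highest mean binding were chosen for it. The site labelled Rps24 lay in a CpG island 288511 bp from the start site of that gene (chr14:24778864-24779664). It had 332.9 TFEB tags per 10M in the WT oligodendrocyte pool and 757.4 in the SgshKO pool (0.53 after centring), and 9.85 and 0.85 in microglia (-2.98). Its acetylation was 17.5 ± 2.9 in microglia, 176.3 ± 16.7 in neurons and 74.6 ± 31.2 in oligodendrocytes. The site labelled Capg (chr6:72512530-72513330) lay 711 bp from Sh2d6 and 25352 bp from Capg, an actin-capping protein gene. It had 209.1 and 454.3 TFEB tags in the oligodendrocyte pools (0.47) and 35.17 and 80.47 in the microglial pools (0.74). The site labelled Wnt2b (chr3:104993639-104994439) lay 7876 bp from Cttnbp2nl and 32330 bp from Wnt2b. It had 202.1 and 380.8 TFE3 tags in the oligodendrocyte pools (0.05) and 78.42 and 93.61 in the microglial pools (-0.40).

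Differences in acetylation between genotypes were called at shared distal peaks mainly in microglia. Of the 3035 sites with enough tags to be tested there (51.0%), 281 changed at 4 months (186 higher and 95 lower in SgshKO, 9.26%) and 291 at 8 months (175 and 116, 9.59%), against 12.2% and 13.1% of all microglial peaks tested. Over both ages 535 changed (17.6%, against 23.4% of all), with 314 higher and 221 lower. Of all peaks, 12.7% were higher and 10.7% lower. The median size of the 535 changes was 1.01 on the log2 scale, 274 were 2-fold or more (9.03% of those tested, against 10.6% of all peaks), and at 418 the WT and SgshKO libraries did not overlap (13.8%, against 18.4%). The calls are from limma with Benjamini-Hochberg adjustment over all 69663 peaks tested, at an adjusted p below 0.05. The 135 sites called at both ages were 48.0% of the 4-month and 46.4% of the 8-month calls, and all 135 had the same direction at both ages.

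With tags scaled to the library total instead of by trimmed means, 552 shared distal peaks changed over both ages, of which 199 were higher and 353 lower, so the share of higher calls was 36.1% in place of 58.7%. The median change of all tested peaks moved from -0.02 to -0.20. Leaving out 1 library moved the 4-month count from 281 to 164 (WT 4 months replicate 1), 130 (SgshKO 4 months replicate 1) or 157 (SgshKO 4 months replicate 2), and the 8-month count from 291 to 142 or 131 (WT 8 months replicates 1 and 2). These fits leave an arm with 1 library, which is assumed to vary like the others.

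The microglial libraries also differed by genotype at the start sites of cell type markers. The summed level of the endothelial markers with a peak (Pecam1 and Flt1 of 4, with no peak at Cldn5 or Tek) was 28.3 to 40.6 in SgshKO and 71.0 to 97.9 in WT. That of the oligodendrocyte markers (Olig2, Mbp, Mog and Cnp of 8, with no peak at Sox10, Mag or Mobp among the others) was 129.9 to 190.5 against 269.2 to 366.6. Pecam1 (mean 55.4) made up most of the first sum, with 4.82 at Flt1 over an input of 3.63. Cnp (167.1) and Mog (54.3) made up most of the second, with 9.38 at Mbp and 2.02 at Olig2. These sums are on library totals, on which the median change of all tested microglial peaks was -0.20. The microglial markers (7 of 8, none at Aif1) summed to 1344 to 1878 against 1882 to 2229, the astrocyte markers (Slc1a3 and Aldh1l1 of 5) to 35.1 to 50.5 against 41.7 to 48.8, and the neuronal markers (Slc17a7 and Camk2a of 8) to 12 to 24.1 against 12.5 to 27.2. Of the 530 shared distal peaks where oligodendrocytes were highest, 276 were tested in microglia. With trimmed-mean scaling 40 of them rose and 8 fell in SgshKO microglia, beside 314 and 221 of all 3035 shared distal peaks tested. Their split under library-total scaling was not counted. The part of other cell types in the changes called in microglia was not tested.

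The rise with the smallest adjusted p was at the first of a pair of overlapping intergenic windows labelled with the microRNA gene Mir3089, 3731 bp away (chr2:30717079-30717879). Their nearest protein-coding genes in RefSeq were 1700001O22Rik, 78084 bp away, and Ntmt1, 90466 bp away. In scaled tags per 10M, the WT microglial libraries read 13.6, 10.5, 12.9 and 13.6, and the SgshKO libraries 157, 145, 99.5 and 146. This rise and the other rises and falls named for genotype were chosen by smallest p among calls without overlap of the genotypes. The change was 3.32 ± 0.22 (SE) on the log2 scale (limma, adjusted p = 1.66e-14). Neurons read 216 to 314 and oligodendrocytes 191 to 281 in both genotypes, so in SgshKO microglia the site was closer to the other cell types. The genotype effect exceeded that of neurons by 3.26 ± 0.21 (adjusted p = 1.43e-12) and that of oligodendrocytes by 3.18 ± 0.21 (adjusted p = 1.56e-12) in a limma fit of all 24 libraries. The factor pools of microglia moved the same way at the Mir3089 site: MITF from 5.11 to 140.45 tags (3.75 after centring), TFEB from 1.17 to 69.95 (4.60) and TFE3 from 24.37 to 186.99 (2.24). The overlapping Mir3089 window at chr2:30716426-30717226 changed by 3.03 ± 0.25 (adjusted p = 3.76e-12).

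A site in intron 1 of 12 of Cerk, the ceramide kinase gene, carries the label of Gm15569 (chr15:86169980-86170780). Its WT microglial libraries read 24.8, 37.2, 34.3 and 23, and its SgshKO libraries 194, 185, 135 and 227. Gm15569 changed by 2.60 ± 0.19 (limma, adjusted p = 1.92e-13). Oligodendrocytes read 206 to 320 there, while neurons stayed at 0 to 10.2. The effect differed from that in oligodendrocytes by 2.25 ± 0.57 (adjusted p = 0.0281), and the difference from neurons, at 1.11, did not pass (adjusted p = 0.451). MITF tags at the Gm15569 site were 6.57 in the WT and 75.94 in the SgshKO pool of microglia (2.56 after centring). The rise with the fourth smallest p lay on the unplaced sequence JH584304 near Pisd-ps3, from 263 to 301 in WT to 492 to 618 in SgshKO (1.00 ± 0.08, adjusted p = 5.17e-12), where the mean microglial input was 63.6.

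The fall with the smallest adjusted p was at an intergenic site labelled Trim33, a gene for a chromatin-binding ubiquitin ligase (chr3:103401101-103401901). It lay 122208 bp from the start site of Trim33 and 42731 bp from the RefSeq span of that gene. The WT microglial libraries read 186, 174, 180 and 140, and the SgshKO libraries 67.0, 49.8, 51.9 and 37.9. Trim33 fell by 1.72 on the log2 scale (SE 0.16, limma, adjusted p = 1.26e-10). In neurons the Trim33 site read 25.1 to 28.4 in WT and 39.8 to 49.6 in SgshKO without overlap, a difference of 0.76 ± 0.26 that did not pass (adjusted p = 0.966). The effect in microglia was below that in neurons by -2.48 ± 0.28 (adjusted p = 8.52e-07) and that in oligodendrocytes by -1.13 ± 0.28 (adjusted p = 0.0284). TFE3 tags at Trim33 were 236.7 in the WT and 88.37 in the SgshKO pool of microglia (-2.06 after centring), and 141.0 and 289.0 in oligodendrocytes, where 0.17 remained after centring.

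A site 33565 bp from Pik3r1, which encodes the regulatory subunit of phosphoinositide 3-kinase (chr13:101801382-101802182), read 112, 94.3, 114 and 108 in WT microglia and 20.6, 31.4, 36.0 and 28.2 in SgshKO. Pik3r1 changed by -1.87 ± 0.20 (limma, adjusted p = 1.92e-09). Oligodendrocytes, where the site was highest (147 to 283), showed 0.16 ± 0.11 (adjusted p = 0.708), and the effects differed by -2.03 ± 0.30 (adjusted p = 5.62e-05). From neurons the microglial effect at Pik3r1 differed by -1.51 ± 0.30 (adjusted p = 0.0032).

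A site 7409 bp from the ribosomal protein gene Rps10 (chr17:27642251-27643051) read 240 to 267 in WT and 103 to 125 in SgshKO microglia, a change of -1.10 ± 0.12 (limma, adjusted p = 2.85e-09). Neurons read 117 to 172 and oligodendrocytes 19.4 to 40.9. The difference of effects was -1.28 ± 0.22 against neurons (adjusted p = 0.000535) and -0.70 ± 0.22 against oligodendrocytes (adjusted p = 0.112). TFE3 at Rps10 read 121.0 tags in WT and 33.71 in SgshKO microglia (-2.46 after centring). A site labelled Hs1bp3 (chr12:8357208-8358008) lay 44175 bp from the start site of that gene and 13784 bp from its RefSeq span. It read 143 to 176 in WT and 49.5 to 76.3 in SgshKO microglia (-1.33 ± 0.15, limma, adjusted p = 7.87e-09). The effect at Hs1bp3 did not pass a difference from neurons (limma, adjusted p = 0.12) or oligodendrocytes (adjusted p = 0.476).

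**Figure D3:**
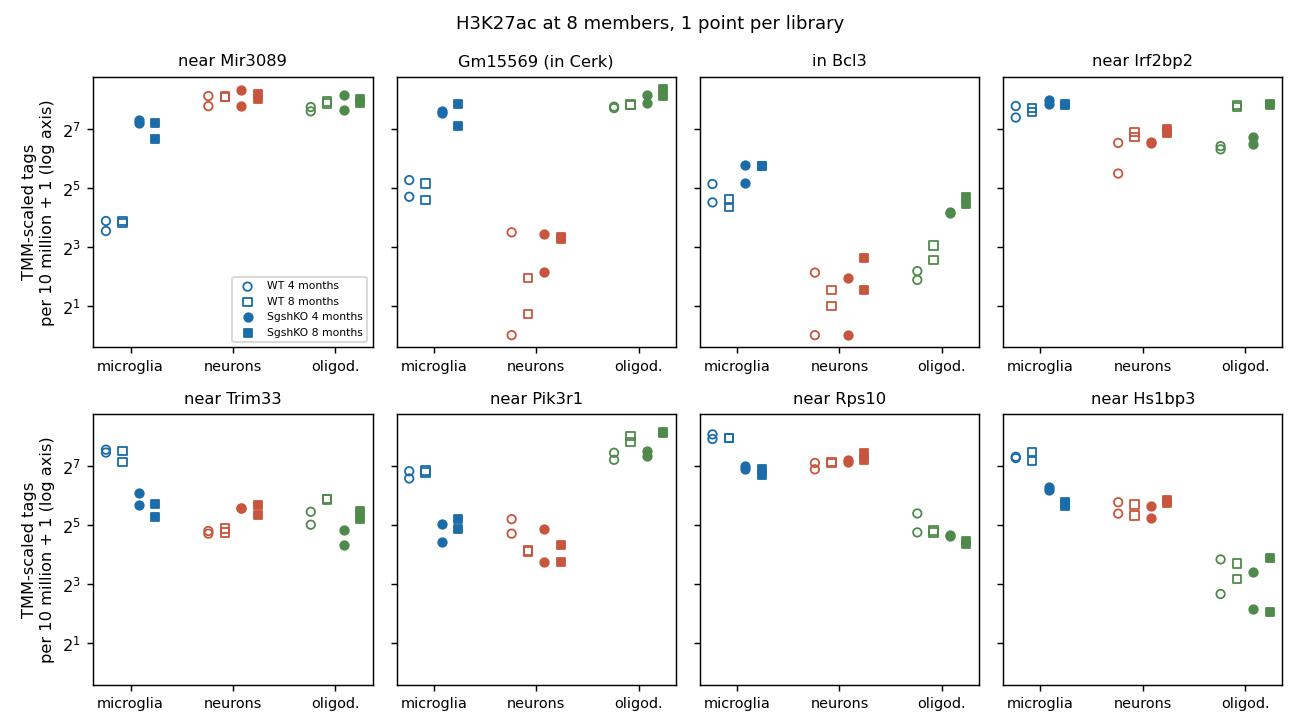
H3K27ac of each library (tags per 10M scaled by trimmed means plus 1, log axis) at 8 named shared distal peaks in microglia, neurons and oligodendrocytes, with WT and SgshKO libraries of 4 and 8 months as separate points. WT microglia read 10.5 to 13.6 and SgshKO microglia 99.5 to 157 at the Mir3089 site, and the Trim33, Pik3r1, Rps10 and Hs1bp3 sites show the opposite order in microglia.

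In neurons no shared distal peak passed for genotype at either age or with the ages joined, among the 4551 sites tested (76.4%), with 0% of all neuronal peaks called in each of these comparisons. Of the 4551, 414 had an unadjusted limma p below 0.05 at 4 months, 59 did at 8 months and 208 did with the ages joined, and edgeR and DESeq2 also called 0. Depth differed with genotype at 4 months, with 7970059 and 6059671 tags in the WT neuronal libraries and 18798451 and 16273384 in the SgshKO ones. The part of depth in the 4-month comparison was not tested. In oligodendrocytes 5167 sites (86.8%) were tested. There 6 were called at 4 months (5 higher and 1 lower, 0.204% of all peaks called), 0 at 8 months (119 at an unadjusted p below 0.05, edgeR 0, DESeq2 1, 0.00892% of all peaks) and 1 over both ages (0.127% of all peaks).

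That site was in intron 2 of 8 of Bcl3, a nuclear regulator of NF-κB (chr7:19816052-19816852), at the sequence printed above. The WT oligodendrocyte libraries read 3.51, 2.66, 4.86 and 7.24 and the SgshKO libraries 16.7, 16.9, 20.7 and 24.7. The absence of overlap was a condition of its choice. Bcl3 rose by 1.95 ± 0.40 (limma, adjusted p = 0.0251). It also rose in microglia, by 0.95 ± 0.24 (adjusted p = 0.00324), and read 0 to 5.09 in neurons. TFEB tags at Bcl3 in oligodendrocytes were 0.95 in the WT pool and 74.03 in the SgshKO pool (4.62 after centring). The oligodendrocyte call at Bcl3 was lost with library-total scaling (adjusted p = 0.135) and without either WT 8-month library or any 1 SgshKO library (adjusted p from 0.156 to 0.365).

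The genotype effects of cell types were compared in the joint fit of all 24 libraries. The effect in microglia differed from that in neurons at 111 shared distal peaks (65 more positive and 46 more negative, against 1.75% of all matched peaks). It differed from that in oligodendrocytes at 108 (78 and 30, against 1.80%). Both differences passed at 65 sites, of which 60 were also called within microglia. Of the 535 microglial calls, 91 (17.0%) differed from neurons and 87 (16.3%) from oligodendrocytes, so most calls made in microglia alone were not shown to differ from the other cell types. The 314 sites that rose in microglia had a median change of 1.15, and the same sites had medians of 0.08 in neurons (289 tested) and 0.06 in oligodendrocytes (303 tested). The 221 that fell had a median of -0.77 in microglia and 0.03 in neurons and in oligodendrocytes. The count against neurons was 73 without the WT 8-month neuronal replicate 1. Against oligodendrocytes it was 70 without the WT 8-month microglial replicate 2, and 69 or 71 without either SgshKO 8-month oligodendrocyte library.

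**Figure D4:**
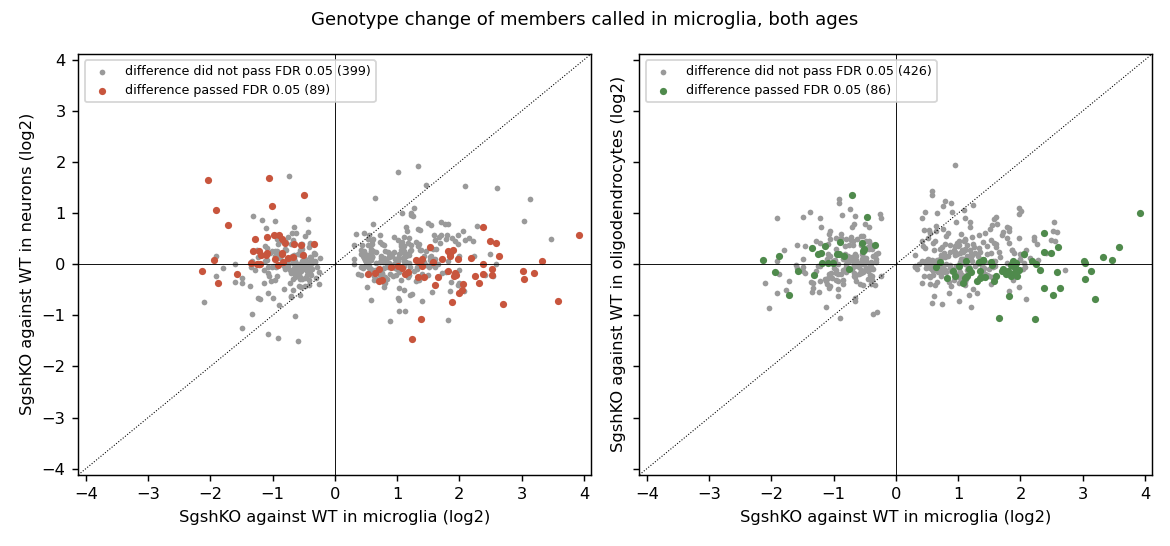
Genotype effect (SgshKO over WT, both ages, log2) in microglia against that in neurons and in oligodendrocytes, 1 point per shared distal peak that was called in microglia and tested in the other cell type. The points were chosen by their microglial call, and their medians on the other axis are 0.03 to 0.08 with single points up to 1.93 in neurons and 1.95 in oligodendrocytes.

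The called sites were not spread evenly over the classes. In microglia 19 of 282 tested sites marked in no cell type changed (6.74%), 79 of 560 marked in 1 (14.1%), 110 of 783 in 2 (14.0%) and 327 of 1410 in all 3 (23.2%, 186 higher and 141 lower). CpG island sites changed at 46 of 373 (12.3%), against 18.4% of the rest. Sites bound by a factor in microglia changed at 443 of 2326 (19.0%) and unbound sites at 92 of 709 (13%). Sites highest in microglia changed at 109 of 470 (56 higher, 53 lower), those highest in neurons at 46 of 321 (31 and 15) and those highest in oligodendrocytes at 48 of 276 (40 and 8). The classes differ in level and so in the chance to pass, and no test was made between them.

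The factor pools moved in the direction of the acetylation calls in microglia. The log2 ratio of the SgshKO to the WT pool, centred on all bound peaks, had a median of 1.06 for MITF at the 196 bound sites whose acetylation rose, -0.38 at the 97 bound sites where it fell and -0.07 at the 1056 bound sites not called. At the sites that rose, 105 (53.6%) were 2-fold higher in MITF and 25 (12.8%) 2-fold lower, against 28.9% and 28.7% of all bound peaks. At the sites that fell, 21 (21.6%) were higher and 36 (37.1%) lower. For TFEB the medians were 0.67, -0.47 and 0.00, with 68 higher and 16 lower of 167 bound sites that rose and 14 higher and 39 lower of 96 that fell, against 26% and 25.9% of all bound peaks. For TFE3 the medians were 0.82, -0.48 and -0.13, with 119 higher and 17 lower of 259 that rose and 12 higher and 43 lower of 159 that fell, against 20.2% and 20% of all bound peaks. In the oligodendrocyte pools the medians at the same 3 sets of sites were 0.45, 0.09 and 0.12 for MITF, 0.10, 0.00 and -0.03 for TFEB and -0.10, 0.09 and 0.03 for TFE3. The shares of all bound peaks were not split by acetylation call. Whether other microglial peaks show the same pattern was not tested. Each pool is 1 merged sample, so none of these differences has a replicate check.

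Without regard to acetylation, the share of bound sites with a 2-fold pool difference was within a few percentage points of that of all bound peaks, with no test. In microglia 59.3% of bound sites differed 2-fold between genotypes for MITF (57.5% of all bound peaks), 53.0% for TFEB (51.9%) and 39.0% for TFE3 (40.1%). In oligodendrocytes the shares were 53.4% for MITF (55% of all bound peaks), 40.0% for TFEB (36.9%) and 35.6% for TFE3 (33.1%).

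**Figure D5:**
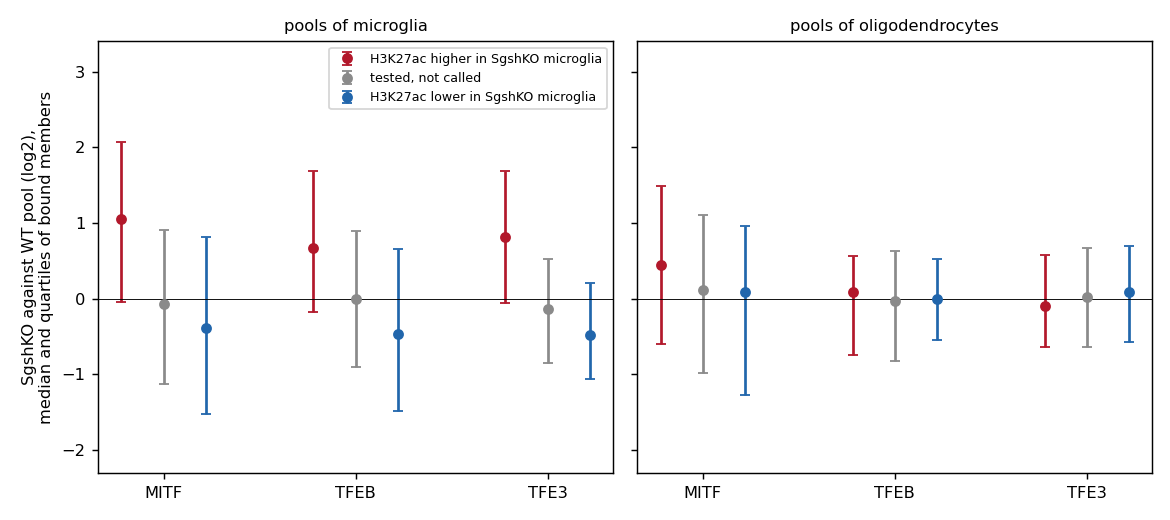
Log2 ratio of the SgshKO to the WT factor pool at bound shared distal peaks, by the acetylation call in microglia (higher, not called, lower), for each factor in microglia and oligodendrocytes. In microglia the medians at sites with higher acetylation are 1.06, 0.67 and 0.82 and at sites with lower acetylation -0.38, -0.47 and -0.48, while the oligodendrocyte medians lie between -0.10 and 0.45.

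Age was called at shared distal peaks mainly in oligodendrocytes. In neurons and oligodendrocytes the 8-month ChIP columns moved in steps of 0.5 tag and the 4-month columns in steps of 1 tag. Age and this difference between the columns cannot be told apart. Over both genotypes 131 of 5167 sites (2.54%, against 2.88% of all oligodendrocyte peaks) differed between 8 and 4 months, 113 higher and 18 lower at 8 months. Of the 2257 calls over all oligodendrocyte peaks, 1926 were higher and 331 lower. A change of 2-fold or more was found at 40 of the 131 sites, a count not made over all peaks. Sites marked in all 3 cell types made up 70 of the calls (69 higher, 1 lower, 4.94% of 1418 tested). Sites marked in none made up 11, all lower (1.04% of 1054 tested). The site 73159 bp from Irf2bp2, a transcriptional corepressor gene (chr8:126666195-126666995), read 83.8, 77.6, 105 and 87.4 in the 4 oligodendrocyte libraries of 4 months and 211, 221, 220 and 229 in those of 8 months. Irf2bp2 rose by 1.31 ± 0.12 (limma, adjusted p = 7.44e-10) in the libraries of both genotypes. The Pik3r1 site rose by 0.65 ± 0.11 (adjusted p = 9.18e-05), the Gm7244 site by 0.52 ± 0.09 (adjusted p = 0.000426) and the Wnt2b site by 0.38 ± 0.08 (adjusted p = 0.00376).

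The summed level of the oligodendrocyte markers in the oligodendrocyte libraries also differed by age: 1901 to 2282 in 3 libraries of 4 months, 1209 in the SgshKO 4-month replicate 2, and 2889 to 3340 at 8 months. That replicate stood apart, with a trimmed-mean scaling factor of 0.643 against 0.920 to 1.20 in the other 7 oligodendrocyte libraries. Its part in the age result was not tested beyond the count without it that is given below. With library-total scaling 464 shared distal peaks were called for age (453 higher and 11 lower), and the median change of all tested oligodendrocyte peaks was 0.41. The count was 254 without the WT 4-month replicate 1, 71 and 46 without the WT 8-month replicates 1 and 2, 73 without the SgshKO 4-month replicate 2, and 54 and 57 without the SgshKO 8-month replicates. The fall with age of smallest adjusted p, at a satellite repeat near Pak3 (chrX:143482655-143483455), had a mean input of 1325 against a mean ChIP level of 405.5 and was unmarked.

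In neurons 6 shared distal peaks were called for age (3 higher and 3 lower, against 0.205% of all neuronal peaks). Depth also differed with age there, with 6059671 to 18798451 tags in the 4-month ChIP libraries and 29935943 to 35485716.5 in the 8-month ones. The CpG island site 21383 bp from Tcf12, a basic helix-loop-helix factor gene (chr9:72132802-72133602), read 140, 186, 217 and 160 at 4 months and 94.8, 94.2, 109 and 84.1 at 8 months, a change of -0.86 ± 0.16 (limma, adjusted p = 0.0165). The site in intron 2 of 11 of Zmynd8, a chromatin reader gene (chr2:165874627-165875427), changed by 0.60 ± 0.12 (adjusted p = 0.0242). Neither call remained without the filter on low values (adjusted p = 0.0629 for Tcf12 and 0.0890 for Zmynd8), or without WT 4-month replicate 2, WT 8-month replicate 2 or either SgshKO 8-month library (adjusted p from 0.0844 to 0.234). In microglia 0 sites were called for age (193 at an unadjusted limma p below 0.05, edgeR 0, DESeq2 0, and 0% of all peaks).

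The genotype effect was called as different between ages at 1 site. In microglia 0 of 3035 passed (197 at an unadjusted limma p below 0.05, edgeR 0, DESeq2 0), and in neurons 0 of 4551 (208 at an unadjusted p below 0.05, edgeR 0, DESeq2 0), with 0% of all peaks called in both. In oligodendrocytes the site was in an intron of Firre, the gene of an X-linked long noncoding RNA (chrX:50614774-50615574), against 0.0408% of all oligodendrocyte peaks. WT read 101 and 84.8 at 4 months and 15.6 and 79.4 at 8 months, and SgshKO read 18.4 and 10.3 at 4 months and 73.3 and 92.7 at 8 months. The interaction was 3.86 ± 0.54 (limma, adjusted p = 7.94e-05), and DESeq2 did not call it (adjusted p = 0.686). Libraries of 1 group at Firre were also far apart in microglia (1.23 to 36.1 over all libraries) and in neurons (1.81 to 76.8).

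Sites named for genes of 7 gene lists gave 11 calls among 61 tested in microglia (18%, against 17.6% of all shared distal peaks tested and 23.4% of all peaks). Of 19 homeostatic microglial genes, 4 were the nearest gene of 6 shared distal peaks, all tested, with 1 higher and 0 lower. Of 30 genes of disease-associated microglia, 7 had 9 sites, of which 3 were tested and 0 called. Of 53 lysosome genes, 12 had 16 sites (9 tested, 1 higher, 1 lower). Of 26 immediate early and stress genes, 15 had 35 sites (26 tested, 1 higher, 4 lower), and 15 of these sites were marked in all 3 cell types. The neuronal list had 10 sites (5 tested, 0 higher, 1 lower), the oligodendrocyte list 25 (10 tested, 1 higher, 1 lower) and the chromatin architecture list 2 (2 tested, 0 called). The median change in microglia was 0.20 over the homeostatic, -0.24 over the disease-associated, 0.27 over the lysosome and -0.18 over the immediate early sites tested, beside -0.02 over all peaks. No site of these lists was called for genotype in neurons or oligodendrocytes.

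At the site near Mog, a myelin glycoprotein gene (chr17:37028460-37029260), WT microglia read 87.2, 58.3, 51.4 and 51.7 and SgshKO microglia 8.10, 21.5, 14.4 and 20.4. Mog changed by -1.93 ± 0.27 (limma, adjusted p = 7.29e-07), beside the lower oligodendrocyte marker sum of the SgshKO microglial libraries. It read 253 to 376 in oligodendrocytes. The Mbp intron site (chr18:82531702-82532502), named for myelin basic protein, moved the other way in microglia, by 0.66 ± 0.18 (adjusted p = 0.00453), and lost its call with library-total scaling (adjusted p = 0.0963).

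A site labelled with Psap, the gene of the lysosomal saposins, lay in intron 65 of 68 of Cdh23 (chr10:60305130-60305930). It read 126 to 170 in WT and 80.6 to 90.4 in SgshKO microglia, and Psap changed by -0.68 ± 0.14 (limma, adjusted p = 0.000414). A site labelled Tfeb, the gene of the factor itself (chr17:47793117-47793917), lay 7773 bp from its start site and 1101 bp from its RefSeq span. The Tfeb site read 18.9 to 30.0 in WT and 31.6 to 52.6 in SgshKO microglia (0.72 ± 0.25, limma, adjusted p = 0.0283). That Tfeb call was lost with library-total scaling (adjusted p = 0.139), with DESeq2 (adjusted p = 0.0597) and without WT 4-month replicate 2, WT 8-month replicate 2, either SgshKO 4-month library or SgshKO 8-month replicate 1 (adjusted p from 0.0575 to 0.15).

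Both sites named for Btg2, an antiproliferative immediate early gene, fell in SgshKO microglia. The site at chr1:134082691-134083491 read 144 to 217 in WT and 110 to 127 in SgshKO (-0.64 ± 0.13, limma, adjusted p = 0.00037), and 2.9 ± 1.6 in oligodendrocytes. The Btg2 site at chr1:134060611-134061411, 12731 bp from Fmod and 13854 bp from Btg2, read 92.8 to 123 in WT and 58.1 to 72.8 in SgshKO (-0.66 ± 0.17, adjusted p = 0.00264). An intron site of Rbfox1, a neuronal splicing factor gene (chr16:7279324-7280124), read 112 to 139 in WT and 80.2 to 102 in SgshKO microglia (-0.55 ± 0.15, adjusted p = 0.00525), with an adjusted p of 0.0569 without SgshKO 4-month replicate 1. The Selplg-labelled site in an intron of Coro1c (chr5:113854339-113855139) read 0 to 3.67 in WT and 4.86 to 22.3 in SgshKO microglia (2.10 ± 0.64, adjusted p = 0.0135). It lost its call without SgshKO 4-month replicate 2 (adjusted p = 0.0528) or SgshKO 8-month replicate 1 (adjusted p = 0.122). At the Timp2 intron site (chr11:118348675-118349475), from the disease-associated list, microglia read 100 to 168 with a change of -0.24 (adjusted p = 0.218), and neurons and oligodendrocytes read 3.8 ± 3.1 and 5.3 ± 3.3.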

How the data were processed

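The authors counted ChIP-seq tags around reproducible ATAC peaks of each cell type and deposited them as signal in tags per 10M, per the file headers (800 bp windows for H3K27ac, 200 bp for the factors). The submitters' processing notes name mm10, Bowtie2, HOMER and DESeq2 without versions or roles, and other settings are not given in the sources used here. Tags were recovered from the step of each column. All 8-month neuronal and oligodendrocyte H3K27ac ChIP columns moved in steps of 0.5 tag, and all 4-month ones in steps of 1 tag. Microglial columns moved in steps of 1 tag. The deposited totals of the microglial inputs repeat those of the ChIP libraries, so input totals were taken from the step. No value column was left unmapped.

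Peaks were joined by their centres. Levels and marks are means of the 8 ChIP libraries of a cell type, each on its own library total. Genotype, age and their interaction were fitted per cell type with limma-trend (limma 3.58.1, edgeR 4.0.16, R 4.3.3) on log2 of tags per 10M scaled by trimmed means plus 1, after a filter on low tags (filterByExpr), over the whole table (69663, 97997 and 78443 peaks tested). Adding 1 shrinks changes of low sites. Differences of genotype effects came from 1 fit of 24 libraries over the 19819 matched peaks, and this fit keeps the sites that the filter removes elsewhere. The microglial genotype contrast over both ages and the joint comparison of microglia with neurons were tested on simulated data. The other fits and contrasts were not. DESeq2 1.42.0 was an alternative, and tables and figures used Python 3.11.15. With 2 libraries per group at these depths, small changes can be missed. Neuronal and oligodendrocyte inputs mix genotypes, with 1 input per age.

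Named sites were the 4 non-overlapping rises and falls of smallest p per cell type, the 6 highest in all cell types, the 2 most set apart per cell type, the 3 most bound, the 2 age and interaction calls of smallest p, the sites at each limit and the 2 microglial sites of smallest p per gene list. Some named sites are not reported here. The CTCF sequences were added after values were seen. The members and lists were chosen with earlier results of these data known.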

Additional observations from a re-analysis of the deposited data

Results flagged for a closer look

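Genotype effects differed between cell types in the joint fit of all 24 libraries (limma, Benjamini-Hochberg adjustment). The microglial effect differed from the neuronal effect at 111 shared distal peaks (1.86%) and from the oligodendrocyte effect at 108 (1.81%), shares near the 1.75% and 1.80% of all matched peaks.

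Among the named sites, the Mir3089 windows differed by 3.26 and 3.32 from neurons and by 3.18 and 3.01 from oligodendrocytes on the log2 scale. The Gm15569 site in Cerk differed by 2.25 from oligodendrocytes. The Trim33 site differed by -2.48 from neurons and -1.13 from oligodendrocytes, the Pik3r1 site by -1.51 and -2.03, and the Rps10 site by -1.28 from neurons. The Firre site differed between ages in its oligodendrocyte genotype effect by 3.86, with libraries of 1 group far apart.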

How the results depend on the processing

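In microglia the counts of genotype calls kept within 1.5 times of their value under the scalings, pseudocount, filter and tools tried, and those without single libraries ran from 130 to 336 at 4 months, 131 to 357 at 8 months and 377 to 587 over both ages. Age ran from 0 to 7 and the interaction from 0 to 6. In neurons these ranges were 0 to 22 (4 months), 0 to 0 (8 months), 0 to 0 (both ages), 0 to 23 (age) and 0 to 1 (interaction). In oligodendrocytes they were 0 to 106, 0 to 1, 0 to 43, 46 to 254 and 1 to 16. The oligodendrocyte 4-month count of 6 was 106 or 45 without WT 4-month replicate 1 or 2 and 0 without SgshKO 4-month replicate 2, and the count over both ages was 43, 19 and 0 in the same fits. The differences from neurons and oligodendrocytes ran from 73 to 149 and 69 to 136.

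The neuronal age count of 6 was 12 with a pseudocount of 5, 0 without the filter and 33 with DESeq2. The oligodendrocyte 4-month count was 1 with library-total scaling, 2 with edgeR and 3 with DESeq2, the 8-month count 1 with DESeq2, and the count over both ages 0, 2 and 4 with library-total scaling, a pseudocount of 5 and DESeq2. With library-total scaling the oligodendrocyte age count was 464, the interaction count 2 and the count of differences from oligodendrocytes 56. The Pds5a site changed from 0.12 to -0.074 with that scaling. The cause was not tested.

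Same-numbered libraries did not deviate together, so the numbers do not pair them. With the replicate number as a block, microglial counts were 292, 297 and 538, the oligodendrocyte 4-month count 4, its count over both ages 0 (the Bcl3 site had an adjusted p of 0.0530) and its age count 116, the neuronal age count 0, and the differences 85 and 78.

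A single cell type was highest at 31.2% of sites with trimmed-mean scaling, 45.7% by 2-fold means and 31.1% over input. With a 4-fold mark 24.3%, 39.2% and 36.2% were marked. Bound shares fell to 54.0% and 70.5% with WT pools alone, to 32.9% and 48.2% at 4-fold, and to 35.1% and 52.1% if bound in each genotype. The definition gave 5072 or 7098 sites at 100 or 400 bp and 3980 or 7404 beyond 10000 or 1000 bp. Motifs in all members were not run, since no genome was used here.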
